A study of Homo sapiens with 6 samples.

Results

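The 9 genes described here encode neuropeptides, the secretory proteins stored with them, and their receptors. They were taken by gene symbol from a table of RNA levels in A673 cells, a line derived from a Ewing sarcoma that carries the EWSR1-FLI1 fusion gene, and all 9 were found among its 25268 symbols. The members are the peptide precursors CCK, NPY and GAL, the receptors NPY1R, NPY5R and CCKBR, and the granin family members SCG2, VGF and CHGA. Cells of 3 groups were collected 72 h after transfection with esiRNA, a mixture of short interfering RNAs cut from a long double-stranded RNA. The esiFLI1 cells received esiRNA labelled as directed at EWS-FLI1, the fusion transcription factor, the esiUSP9X cells received esiRNA against the deubiquitinase USP9X, and the esiGFP cells received esiRNA against GFP as the non-targeting control. Every group is this single cell line with 2 libraries, numbered 1 and 2, and the labels name no separate cultures. The p-values therefore measure only the spread between these libraries, which may be technical.

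Neuropeptides are made as larger precursors, cut by convertases in dense core vesicles and released on stimulation to act on G protein-coupled receptors of other cells or of the cell itself. Granins such as chromogranin A (CHGA), secretogranin II (SCG2) and VGF are acidic proteins of the same vesicles and are themselves cut into active peptides. Ewing sarcoma cells are known for neural features, for expression of NPY with its receptors, and for CCK as a gene that depends on EWS-FLI1.

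Values are FPKM, sequenced fragments scaled for transcript length and library size, so levels can be compared between genes per length. Genes were tested if 2 or more libraries showed 1 FPKM or more, which held for 7 of the 9 members and for 12169 genes in all. CCKBR and CHGA stayed under 1 FPKM in all 6 libraries and were not tested. CCK was under 1 FPKM in 2 libraries, both of esiFLI1, and VGF was under 1 FPKM in 2 libraries, the second of esiFLI1 and the second of esiGFP. NPY, GAL, NPY1R, NPY5R and SCG2 were above 1 FPKM in all 6.

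The libraries, targets and markers gave the following picture. FPKM summed to between 781732 and 907926 per library, MIR6723 held between 33.2% and 50.9% of that sum, and the read depth is unknown, so a value at or near 0 cannot be read as absence. FLI1, whose end is part of the fusion transcript, was 12.7 and 14.1 FPKM in esiFLI1, against 24.1 and 36.4 FPKM in esiGFP. USP9X was 5.31 and 7.10 FPKM in esiUSP9X, against 20.6 and 26.5 FPKM in esiGFP. Limma without the replicate block called neither fall (log2 change -1.09 for FLI1, adjusted p = 0.13, and -1.77 for USP9X). With the block limma called both lower (adjusted p = 4.4e-04 for FLI1 and 4.5e-04 for USP9X). Of 7 Ewing sarcoma markers 6 reached 1 FPKM in every library of all 3 groups, and CD99, a surface protein used in diagnosis, was listed at 0 in all 6. A listed 0 in such a table can be a failed estimate, which bears on every gene given at 0 here. The summed level of the 7 was 162 to 200 FPKM in esiFLI1, 407 to 419 FPKM in esiUSP9X and 362 to 415 FPKM in esiGFP. In esiFLI1 against esiGFP, 2 of the 6 tested were called lower by limma and 6 with the replicate block, against 0.23% and 21.6% of all tested genes. Among markers of sympathetic neuroblasts, which also make NPY, HAND2 and ISL1 were above 1 FPKM, and TH and DBH were at most 0.0773 FPKM in any library. None of 3 skeletal muscle and 3 epithelial markers reached 1 FPKM.

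The upstream sequences of the 3 members that fell in esiFLI1 are printed because EWS-FLI1 binds DNA through the core motif GGAA, singly and in tandem repeats, and because NPY1R and NPY5R lie side by side on chromosome 4 and point away from each other. Each is the stretch of 250 bases before the first annotated start, 5′ to 3′ on the strand of the gene, from RefSeq on GRCh38.p14, a newer build than the hg19 named for the deposited values. They lie at chr4:163332597-163332846 (minus strand) for NPY1R, chr4:163343642-163343891 (plus strand) for NPY5R and chr3:42266186-42266435 (minus strand) for CCK. Capitals mark GGAA on either strand, read as GGAA or TTCC.
NPY1R: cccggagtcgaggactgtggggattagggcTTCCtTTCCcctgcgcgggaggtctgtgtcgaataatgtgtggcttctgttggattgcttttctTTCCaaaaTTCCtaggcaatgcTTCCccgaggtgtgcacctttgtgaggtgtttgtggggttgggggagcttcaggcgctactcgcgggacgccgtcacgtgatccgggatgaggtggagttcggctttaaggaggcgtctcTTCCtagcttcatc
NPY5R: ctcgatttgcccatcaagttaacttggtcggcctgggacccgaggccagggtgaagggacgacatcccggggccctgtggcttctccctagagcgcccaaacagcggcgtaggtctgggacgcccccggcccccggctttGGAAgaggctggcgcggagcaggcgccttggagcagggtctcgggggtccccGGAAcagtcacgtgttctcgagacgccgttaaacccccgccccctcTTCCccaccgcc
CCK: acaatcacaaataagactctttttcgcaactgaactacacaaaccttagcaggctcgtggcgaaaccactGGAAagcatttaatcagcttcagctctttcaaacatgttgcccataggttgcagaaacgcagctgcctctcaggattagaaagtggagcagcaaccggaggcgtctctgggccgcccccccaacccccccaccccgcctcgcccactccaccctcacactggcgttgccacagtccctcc

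The stretch before NPY1R holds 6 copies of the motif, that before NPY5R 3 and that before CCK 1. CCK and NPY5R each have a second annotated start, not printed here, whose stretches hold 5 copies for CCK and 1 for NPY5R, so the order of these 2 genes turns with the start used. Of 35116 promoters of the same length, 92.7% hold at least 1 copy and the median is 3, so its presence does not set these genes apart. The tandem form GGAAGGAA, searched on both strands and overlapping the single motif, is in none of the member promoters searched and in 3.06% of all promoters. The starts of NPY1R and NPY5R are 11296 bases apart on GRCh38.p14, and the sequence between these windows was not searched. Promoters were found for 7 of the 9 members. The other two, SCG2 and GAL, had no entry.

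In esiFLI1 the RNA of both NPY receptors and of CCK was lower than in esiGFP and that of the granin SCG2 was higher, while NPY, GAL and VGF were not called. A gene is called here where its adjusted p in limma was under 0.05. In bulk RNA, fewer cells with a transcript and less of it per cell cannot be told apart. Without a term for the replicate number, limma called 2 of the 7 tested members lower in esiFLI1 than in esiGFP and 1 higher, against 0.23% and 2.58% of all 12169 genes. With the replicate number as a block it called 3 lower and 1 higher, against 21.6% and 20.6% of all genes. The libraries of both groups did not overlap for 3 members on the low side and 1 on the high side, against 17.3% and 19.8% of all genes. The median log2 change was -0.61 over the 7 tested members and -0.03 over all tested genes. The median of the members is the value of VGF alone, which neither fit called. These 7 were chosen with earlier results known, so the counts describe them and carry no test of the list.

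**Figure D1:**
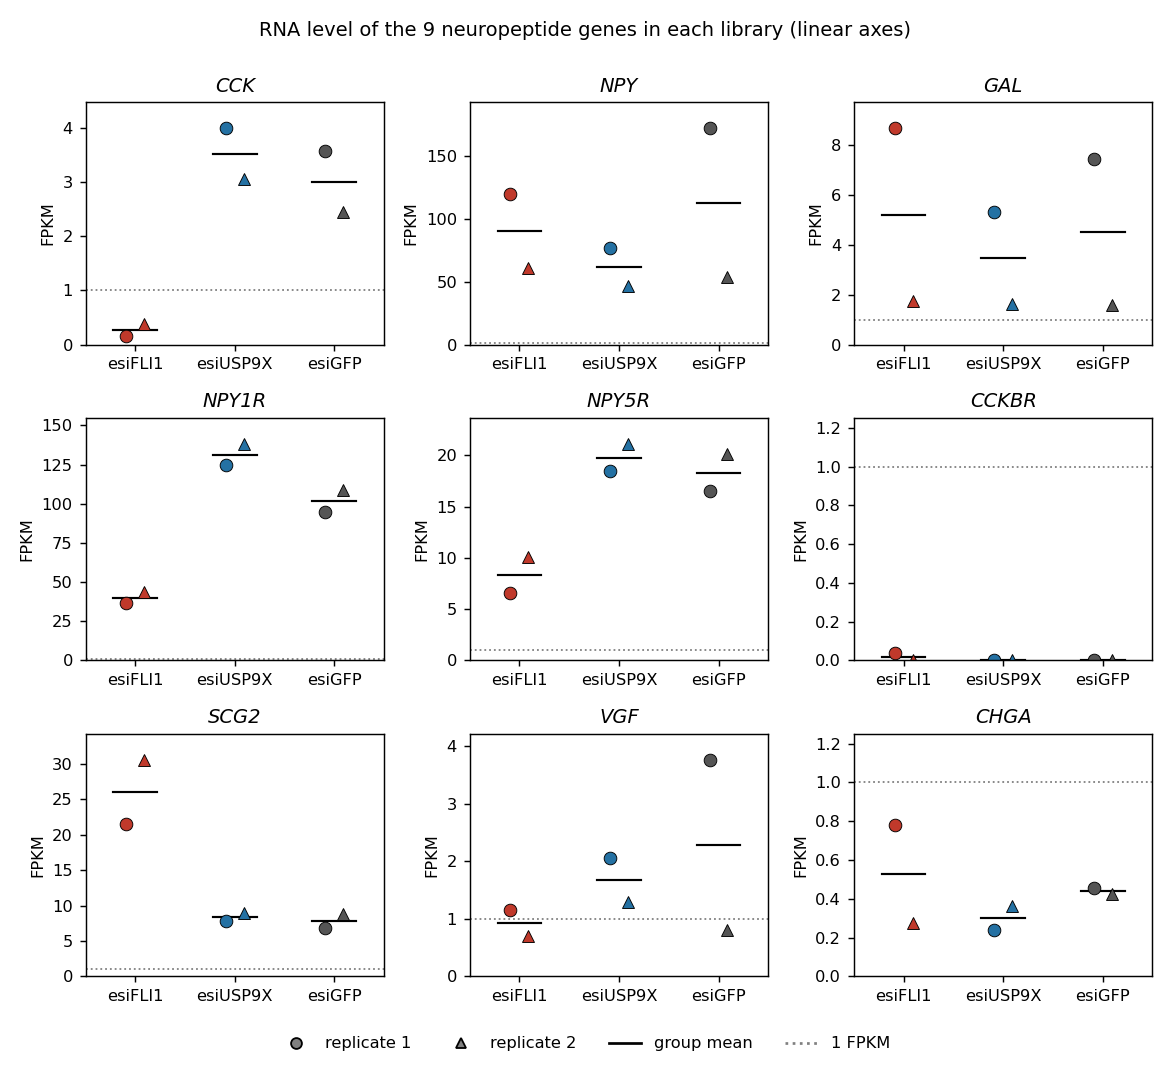
FPKM (linear axis, starting at 0) of the 9 genes in each library, with esiFLI1, esiUSP9X and esiGFP from left to right. Circles are replicate 1, triangles replicate 2, bars the mean of 2 libraries and the dotted line 1 FPKM. The esiFLI1 libraries lie below all others for CCK, NPY1R and NPY5R and above all others for SCG2, and replicate 1 lies above replicate 2 in every group for NPY, GAL and VGF.

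NPY1R, the receptor through which NPY acts on vessel and nerve cells among others, was the most abundant receptor of the set. It was 36.4 and 43.5 FPKM in esiFLI1 (40.0 ± 4.96, SD, n = 2), 125 and 138 FPKM in esiUSP9X (131 ± 9.41) and 94.9 and 109 FPKM in esiGFP (102 ± 9.78). All 4 libraries without FLI1 knockdown lay above both with it. In esiFLI1 the mean was 2.55-fold lower than in esiGFP, by 2.60 in replicate 1 and by 2.5 in replicate 2. The log2 change was -1.33 (limma without a block, SE 0.19, adjusted p = 0.036). That call ended when any one library was left out (adjusted p of 0.14 to 0.26), with quantile normalization (0.062) and with rescaling without MIR6723 (0.071). The blocked fit called NPY1R as well (SE 0.09, adjusted p = 5.5e-05). Over 13 other settings of the blocked fit the log2 change ran between -1.39 and -1.19. Those with a library left out or 2 groups alone have 1 residual degree of freedom.

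NPY5R, the NPY receptor best known for its part in feeding, ran at a lower level and in the same direction. It was 6.56 and 10.1 FPKM in esiFLI1 (8.33 ± 2.49, SD, n = 2), 18.5 and 21.1 FPKM in esiUSP9X (19.8 ± 1.85) and 16.5 and 20.1 FPKM in esiGFP (18.3 ± 2.54). The esiFLI1 libraries did not overlap those of either other group. Its mean was 2.19-fold lower in esiFLI1 than in esiGFP, and the log2 change was -1.07. Limma called this with the block (SE 0.12, adjusted p = 4.3e-04) but not without it (SE 0.26, adjusted p = 0.13), and with the block and no filter on low values the adjusted p was 0.065.

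The ratio of NPY1R to NPY5R, neighbours in the genome, was 5.55 and 4.31 in esiFLI1, 6.75 and 6.55 in esiUSP9X and 5.76 and 5.42 in esiGFP. It therefore moved less between groups than either gene did. Among the 21 pairs of tested members, NPY1R and NPY5R had the most alike profiles over the 6 libraries, with a root mean square difference of 0.23 on the log2 scale after each gene was centred on its own mean. CCK and NPY1R came next at 0.25, on the log2(FPKM + 1) scale, which compresses CCK at its low level. In FPKM the mean of CCK was 11.1-fold lower in esiFLI1 than in esiGFP, against 2.55-fold for NPY1R. CCK and SCG2 were least alike at 1.57.

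CCK, the precursor of cholecystokinin, a gut hormone and brain peptide, showed the widest fold difference of the tested members between esiFLI1 and esiGFP. It was 0.165 and 0.377 FPKM in esiFLI1 (0.271 ± 0.150, SD, n = 2), 3.99 and 3.06 FPKM in esiUSP9X (3.52 ± 0.661) and 3.57 and 2.44 FPKM in esiGFP (3.0 ± 0.798). Both esiFLI1 libraries were under 1 FPKM and the 4 others were above it, and CCK entered the test through those 4. The mean was 11.1-fold lower in esiFLI1 than in esiGFP, by 21.6 in replicate 1 and 6.48 in replicate 2. On the log2(FPKM + 1) scale, which understates changes of low genes, the change was -1.65 (limma without a block, SE 0.22, adjusted p = 0.033), and with 0.1 added in place of 1 it was -3.10. Without a block the call ended when any library was left out, with adjusted p of 0.088 to 0.24. With it the adjusted p was 3.2e-04, and 0.075 with no filter on low values. CCKBR, the receptor for cholecystokinin and gastrin found in brain and stomach, was 0.0401 FPKM in esiFLI1 replicate 1 and listed at 0 in the other five libraries. No fold is given for it.

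SCG2, the precursor of secretoneurin, was the member that rose. It was 21.5 and 30.6 FPKM in esiFLI1 (26 ± 6.43, SD, n = 2), 7.86 and 8.90 FPKM in esiUSP9X (8.38 ± 0.739) and 6.85 and 8.83 FPKM in esiGFP (7.84 ± 1.40). Both esiFLI1 libraries lay above all 4 others. The mean was 3.32-fold higher in esiFLI1 than in esiGFP, by 3.14 in replicate 1 and 3.46 in replicate 2, and the log2 change was 1.60 (limma without a block, SE 0.25, adjusted p = 0.047). Without a block this call ended when any library was left out (adjusted p of 0.14 to 0.28), with quantile normalization (0.076) and with no filter on low values (0.089). With the block SCG2 was called too (adjusted p = 5.7e-05). Its log2 change ran between 1.48 and 1.81 over 13 other settings of that fit. Those with a library left out or 2 groups alone have 1 residual degree of freedom.

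**Figure D2:**
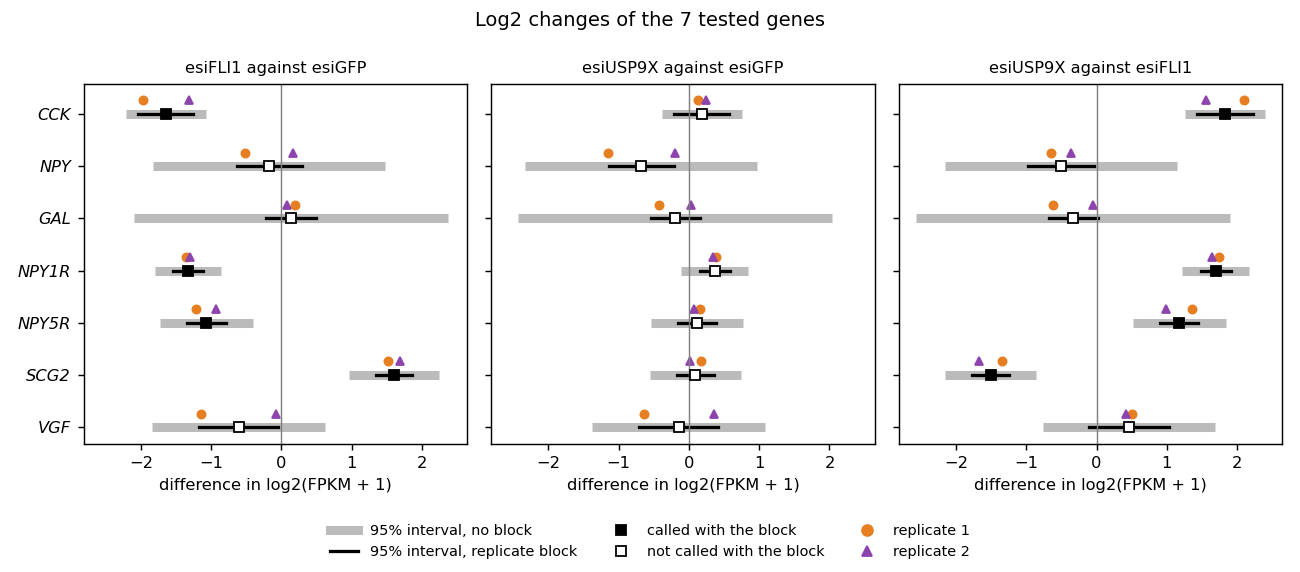
Difference in log2(FPKM + 1) of the 7 tested genes in 3 comparisons. Squares are limma estimates (filled where called with the replicate block), grey bars 95% intervals without a block, black lines 95% intervals with it, circles and triangles the differences within replicates 1 and 2. CCK, NPY1R and NPY5R lie below 0 and SCG2 above 0 for esiFLI1 against esiGFP, and no square is filled for esiUSP9X against esiGFP.

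NPY, a peptide of sympathetic nerves and brain, was the most abundant of the 3 precursors, and replicate 1 was above replicate 2 in every group. It was 120 and 60.8 FPKM in esiFLI1 (90.5 ± 42.0, SD, n = 2), 76.6 and 47.0 FPKM in esiUSP9X (61.8 ± 20.9) and 172 and 54.0 FPKM in esiGFP (113 ± 83.7). All 3 groups overlapped. In esiFLI1 the log2 change was -0.17 (limma without a block, SE 0.65, adjusted p = 0.95), with -0.52 in replicate 1 and 0.17 in replicate 2. The blocked 95% interval of -0.64 to 0.29 leaves out a fall of the size seen for NPY1R. Without a block the 95% interval was -1.82 to 1.48, which holds such a fall, so the 2 fits differ on this. Without esiGFP replicate 2, which left a single control library and 1 residual degree of freedom, the blocked fit called NPY lower (-0.59), and without esiGFP replicate 1 the change was 0.24.

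GAL, the precursor of galanin, a peptide of neurons and endocrine cells, was 8.69 and 1.74 FPKM in esiFLI1 (5.21 ± 4.92, SD, n = 2), 5.32 and 1.64 FPKM in esiUSP9X (3.48 ± 2.60) and 7.45 and 1.60 FPKM in esiGFP (4.53 ± 4.14). Replicate 1 was above replicate 2 by 5.0-fold in esiFLI1, 3.24-fold in esiUSP9X and 4.67-fold in esiGFP. Within replicates GAL differed little between esiFLI1 and esiGFP, with log2 differences of 0.20 and 0.08 and a blocked 95% interval of -0.21 to 0.49.

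VGF, a granin-like protein induced by neurotrophins, was 1.16 and 0.708 FPKM in esiFLI1 (0.932 ± 0.317, SD, n = 2), 2.05 and 1.29 FPKM in esiUSP9X (1.67 ± 0.533) and 3.76 and 0.798 FPKM in esiGFP (2.28 ± 2.09). The esiGFP libraries overlapped both other groups, and those of esiFLI1 and esiUSP9X did not overlap each other. The log2 change in esiFLI1 was -0.61 (adjusted p = 0.67 in limma without a block and 0.081 with it), with -1.14 in replicate 1 and -0.07 in replicate 2. The blocked fit called VGF lower with quantile normalization (-0.85, adjusted p = 0.015) and without esiGFP replicate 2 (-1.12).

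CHGA, a general marker of neuroendocrine cells, was 0.778 and 0.274 FPKM in esiFLI1, 0.241 and 0.364 FPKM in esiUSP9X and 0.453 and 0.426 FPKM in esiGFP. No group stood clear of the esiFLI1 libraries, and at these levels differences were not tested. The 5 neuroendocrine markers listed beside it summed to 19.3 to 38.6 FPKM in esiFLI1, 36.7 to 57.9 FPKM in esiUSP9X and 44.0 to 82.7 FPKM in esiGFP. With the block SYP (-0.51) and ENO2 (-1.21) were called lower in esiFLI1 than in esiGFP and NCAM1 (0.55) higher, which had reached 1 FPKM in the esiFLI1 libraries alone and was tested only through them. INSM1, which marks neuroendocrine cells, was listed at 0 in all 6 libraries. The part of these in the results for SCG2, VGF and CHGA was not tested.

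The order of levels changed between groups. In esiGFP the means ran from NPY (113 FPKM) through NPY1R (102), NPY5R (18.3), SCG2 (7.84), GAL (4.53), CCK (3.0) and VGF (2.28) to CHGA (0.440). There NPY and NPY1R overlapped, as did each neighbouring pair among SCG2, GAL, CCK and VGF, whereas NPY1R, NPY5R and SCG2 stood apart from each other and CHGA lay below VGF. In esiFLI1 SCG2 (26 FPKM) stood above NPY5R (8.33), and CCK (0.271) came below VGF (0.932) and CHGA (0.526), overlapping CHGA but not VGF.

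The difference between replicates 1 and 2, large for NPY and GAL, went with transcript GC content over all tested genes. In GENCODE v29 the transcript taken for each gene has 57.9% GC for NPY, 61.0% for GAL, 70.6% for VGF and 58.2% for CCK, and 38.1% for NPY1R, 40.8% for NPY5R and 43.0% for SCG2. Over genes with 60 to 65% GC, replicate 1 exceeded replicate 2 by a median of 0.87 in esiFLI1, 0.60 in esiUSP9X and 0.84 in esiGFP on the log2 scale, and with 35 to 40% GC the medians were -0.59, -0.35 and -0.45 in the same groups. GAL lay above its bin in all 3 groups, at 1.82 in esiFLI1, 1.26 in esiUSP9X and 1.70 in esiGFP. NPY, at 0.97, 0.69 and 1.66, was also above the median of genes with 55 to 60% GC in each group, which was 0.69, 0.45 and 0.53. CCK lay below that median, at -0.24, 0.30 and 0.41. After each library's trend with GC content was subtracted, an alternative chosen after seeing the data, limma without a block called NPY1R (-1.39, adjusted p = 0.0056), NPY5R (-1.11, 0.0021), CCK (-1.57, 0.022) and SCG2 (1.57, 0.0014), and called no other member (NPY -0.10, VGF -0.29 and GAL 0.25). These calls are for esiFLI1 against esiGFP, where the same correction raised the genes called over the whole table from 342 to 2839. The smaller adjusted p are therefore not particular to the members. The origin of the trend was not tested.

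**Figure D3:**
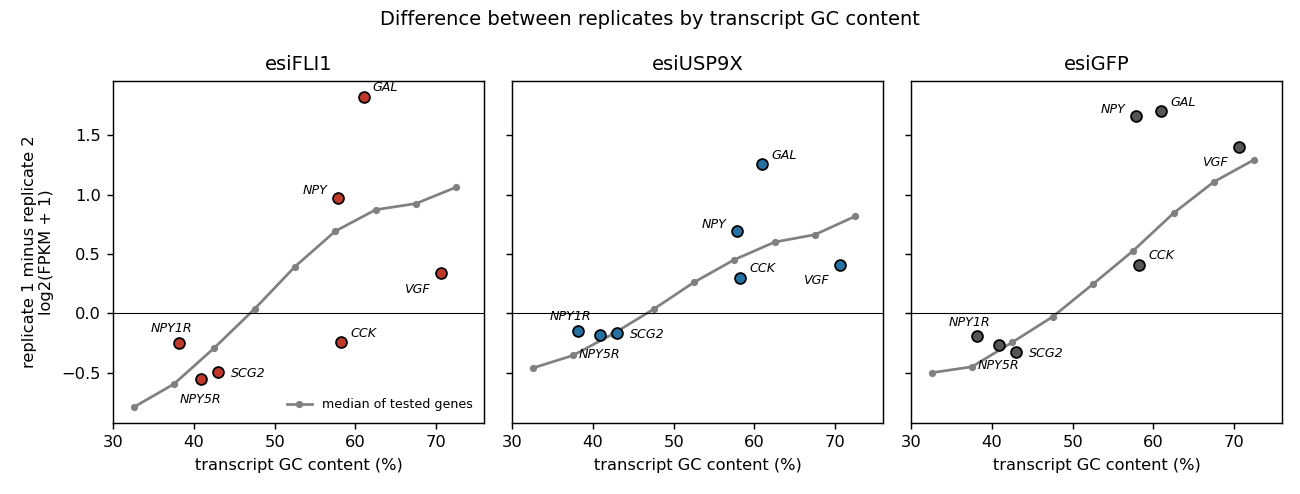
Difference between replicate 1 and replicate 2 in log2(FPKM + 1) against transcript GC content in percent, for esiFLI1, esiUSP9X and esiGFP. Grey points joined by a line are medians of all tested genes in GC bins, and filled circles are the 7 tested members. Medians run from -0.79 at the lowest GC to 1.06 at the highest in esiFLI1, and GAL is the highest of the 7 in each panel.

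Knockdown of USP9X asks whether the same genes move with the deubiquitinase that the series links to the fusion protein. Of the 7 tested members 0 were called in esiUSP9X against esiGFP in either limma fit, where 0.0247% of all genes were called without a block and 0.238% with it. Without a block USP9X itself was not called there (log2 change -1.77), so a missing call in that fit cannot be read as no response. With the block 2 members had an unadjusted p under 0.05, and without it 0 did, against 10.9% and 0.937% of all tested genes. NPY1R had libraries that did not overlap, both above both esiGFP libraries, as 8.75% of all tested genes did. Its mean was 1.29-fold higher in esiUSP9X than in esiGFP, with ratios of 1.31 and 1.27 in the replicates and a log2 change of 0.37 (limma with the block, SE 0.09, 95% interval 0.15 to 0.58, adjusted p = 0.24). NPY was 1.83-fold lower by its mean, with a log2 change of -0.68 (limma with the block, SE 0.20, adjusted p = 0.30), with ratios of 0.445 in replicate 1 and 0.872 in replicate 2. The blocked fit called NPY (-1.09) and VGF (-0.66) lower in esiUSP9X without esiGFP replicate 2, again with 1 residual degree of freedom.

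For the members that moved with FLI1 knockdown the intervals in esiUSP9X were short. The log2 change was 0.18 for CCK (blocked 95% interval -0.21 to 0.58), 0.11 for NPY5R (-0.16 to 0.38) and 0.09 for SCG2 (-0.17 to 0.35). Each of these intervals leaves out a change of the size measured in esiFLI1. A log2 change of -0.15 for VGF (-0.71 to 0.42) and -0.20 for GAL (-0.55 to 0.15) completed the set.

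The direct comparison of esiUSP9X with esiFLI1 tests whether the effects of the knockdowns differ. Limma without a block called 2 of 7 members higher and 0 lower in esiUSP9X, against 0.419% and 2.66% of all genes, and with the block 3 higher and 1 lower, against 20.2% and 20.9%. Libraries did not overlap for 4 members on the high side, CCK, NPY1R, NPY5R and VGF, and for SCG2 on the low side, against 18.4% and 21.1% of all genes. NPY1R was 3.29-fold higher by its mean in esiUSP9X than in esiFLI1 (log2 change 1.70, limma without a block, SE 0.19, adjusted p = 0.019). CCK was 13.0-fold higher (1.83, SE 0.22, adjusted p = 0.024). NPY5R was 2.37-fold higher (1.18, SE 0.12, adjusted p = 2.7e-04 with the block and 0.10 without it) and SCG2 3.11-fold lower (-1.51, SE 0.11, adjusted p = 7.1e-05 with the block and 0.052 without it). The calls of NPY1R and CCK without a block ended when any library was left out, with adjusted p of 0.055 to 0.22, and with the block but no filter CCK and NPY5R had 0.069 and 0.061. Both knockdowns were set against the same esiGFP libraries in the earlier comparisons, so those comparisons are not independent of each other.

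Other genes of the neuropeptide system were read from 3 lists, which were chosen with earlier results of these data known. Of 20 genes for granins, peptide processing and vesicle release, 11 were tested. In esiFLI1 limma without a block called 2 of these higher and 0 lower, and the blocked fit 5 higher and 0 lower, with a median log2 change of 0.21. Of all tested genes 2.58% were called higher and 0.23% lower without a block, and 20.6% higher and 21.6% lower with it. PCSK1, a convertase that cuts precursors, was 2.60 and 2.75 FPKM in esiFLI1, 0.0615 and 0.0670 FPKM in esiUSP9X and 0.190 and 0.267 FPKM in esiGFP (esiFLI1 against esiGFP 1.58, SE 0.13, adjusted p = 0.0097 without a block). It reached 1 FPKM in the esiFLI1 libraries alone and was tested only through the group where it is high, so its call lends nothing to the list's count. CPE, the carboxypeptidase that trims the cut ends, was 44.9 and 51.0 FPKM in esiFLI1, 23.0 and 21.5 FPKM in esiUSP9X and 21.4 and 21.7 FPKM in esiGFP (1.11, SE 0.17, adjusted p = 0.045). The amidating enzyme PAM (0.68), the glutaminyl cyclase QPCT (0.48) and the release protein SNAP25 (0.47) rose in the blocked fit alone. PCSK2, the other convertase and far more abundant, was 36.7 and 41.6 FPKM in esiFLI1 and 40.8 and 49.0 FPKM in esiGFP, with no call. Chromogranin B (CHGB) was 0.630 and 0.684 FPKM in esiFLI1 and 0.167 and 0.194 FPKM in esiGFP, under the level for a test. PCSK2 and CHGB were picked after their values were seen.

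Of 49 other peptide precursors 12 were tested, and 19 were listed at 0 in every library. In esiFLI1, 1 rose and 0 fell without a block, and 4 rose and 2 fell with it, around a median of -0.02. The shares of all tested genes were the same 2.58% higher and 0.23% lower without a block and 20.6% and 21.6% with it. ADM, the vasodilator adrenomedullin, was 40.6 and 30.8 FPKM in esiFLI1, 4.14 and 3.17 FPKM in esiUSP9X and 6.25 and 1.89 FPKM in esiGFP (2.99, SE 0.47, adjusted p = 0.047 without a block). The opioid precursor PENK, the vessel peptide APLN and CALCB, which encodes a calcitonin gene-related peptide, rose with the block by 1.05, 1.82 and 0.52. GRP, a bombesin-like peptide, fell with the block by 0.57 and ADM2 by 0.98. GRP was 98.5 and 43.6 FPKM in esiFLI1, 115 and 54.1 FPKM in esiUSP9X and 143 and 66.5 FPKM in esiGFP.

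Of 54 listed receptors 9 were tested and 10 were at 0 in every library. In esiFLI1 limma called 0 without a block, where 6 had an unadjusted p under 0.05 against 15.8% of all tested genes. With the block 3 rose and 4 fell, against 20.6% and 21.6% of all genes, around a median of -0.10. CALCRL, the shared receptor of adrenomedullin and calcitonin gene-related peptides, was 4.59 and 8.98 FPKM in esiFLI1, 1.70 and 2.31 FPKM in esiUSP9X and 0.872 and 1.29 FPKM in esiGFP (1.85, blocked SE 0.16, adjusted p = 1.4e-04). The endothelin receptor EDNRA (0.96) and the neurotensin-binding sortilin SORT1 (0.58) also rose with the block. The natriuretic peptide clearance receptor NPR3 (-1.07), the neurotensin receptor NTSR1 (-0.93) and C3AR1 (-1.08), which in rodents binds a peptide cut from VGF, fell with the block. KDR, an endothelial marker, was called higher as well (1.08, adjusted p = 0.019 without a block), at 1.30 and 1.33 FPKM in esiFLI1 and 0.106 and 0.0885 FPKM in esiGFP, and it too was tested only through the esiFLI1 libraries. The summed level of 4 endothelial markers was 1.51 to 1.56 FPKM in esiFLI1, 0.193 to 0.231 FPKM in esiUSP9X and 0.153 to 0.205 FPKM in esiGFP, with PECAM1, CDH5 and TEK at most 0.169 FPKM in any library. CD68, one of 3 leukocyte markers, was 7.59 and 4.49 FPKM in esiFLI1 and 3.77 and 2.73 FPKM in esiGFP and was called higher with the block (0.70), while PTPRC was at most 0.0201 FPKM and CD3E was at 0. Their part in the results was not tested.

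**Figure D4:**
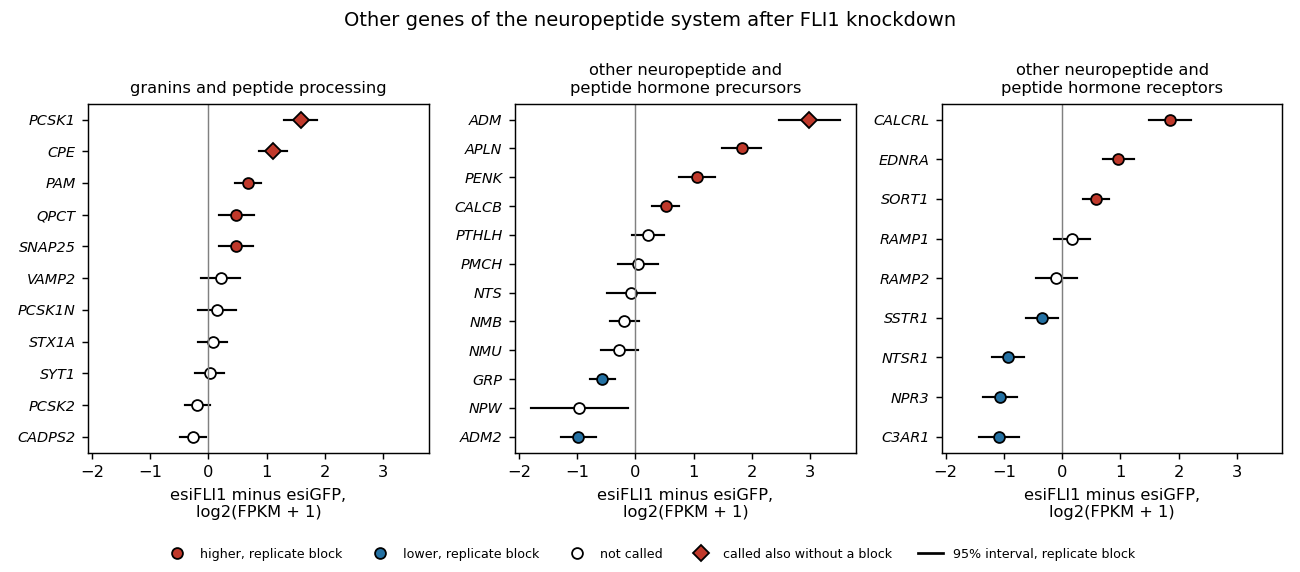
Difference in log2(FPKM + 1) between esiFLI1 and esiGFP for the tested genes of the 3 lists. Points are limma estimates with blocked 95% intervals, red where higher and blue where lower with the replicate block, white where not called, and diamonds where also called without a block. PCSK1, CPE and ADM are the diamonds.

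In esiUSP9X against esiGFP 0 genes of the 3 lists were called by limma in either fit, and of the 32 tested an unadjusted p under 0.05 was found for 1 without a block and 10 with it, against 0.937% and 10.9% of all tested genes. Their most abundant members there were PAM, at 62.9 and 72.8 FPKM in esiUSP9X and 55.5 and 65.1 FPKM in esiGFP, and GRP. In esiUSP9X against esiFLI1, the processing list had 0 higher and 2 lower without a block, PCSK1 and CPE, and 1 higher and 7 lower with it. The precursor list had 0 higher and 1 lower, ADM, and with the block 1 higher and 4 lower, and the receptor list had 0 called, with 5 at an unadjusted p under 0.05 (15.9% of all tested genes), and with the block 3 higher and 3 lower. Over all tested genes the shares called higher and lower were 0.419% and 2.66% without a block and 20.2% and 20.9% with it.

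Genes other than the members whose profiles over the 6 libraries came closest to each member were found by the smallest root mean square difference of centred log2 values. For NPY1R these were GPR160 (0.10) and AMER2 (0.10), for NPY5R FAS (0.11) and NPR3 (0.12), and for CCK CLDN1 (0.18) and FEZF1 (0.21). For SCG2 they were ANGPT1 (0.06) and PHLDB2 (0.09), for VGF NAT8L (0.07) and APBA3 (0.14), for NPY LPPR3 (0.13) and DECR2 (0.17), and for GAL ZNF771 (0.13) and VKORC1 (0.15). ANGPT1, the vessel ligand angiopoietin, was 7.73 and 12.7 FPKM in esiFLI1, 2.73 and 3.28 FPKM in esiUSP9X and 2.11 and 3.16 FPKM in esiGFP, the same order as SCG2. The 2 genes nearest GAL follow the replicate number, with VKORC1 at 87.6 and 31.0 FPKM in esiFLI1, 57.8 and 26.2 FPKM in esiUSP9X and 76.2 and 28.5 FPKM in esiGFP. Profiles share the libraries, so likeness here also holds what the libraries have in common.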

How the data were processed

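Per the labels' protocols, rRNA-depleted stranded libraries were made from 2 µg of total RNA and read as 75-nt single ends. The authors deposited FPKM per gene symbol. The submitters' processing notes name Cuffdiff, TopHat and Cufflinks, with GRCh37 and hg19 as builds. Not given in the sources used here were their versions, the annotation, the use of strand and any scaling between libraries. Reads of overlapping genes or close copies may therefore be split. A stray last line (1) was dropped.

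Log2(FPKM + 1) of the 12169 genes that had 1 FPKM or more in 2 libraries or more was fitted across all genes with limma 3.58.1 in R 4.3.3 (trended eBayes, 3 residual and 2.21 prior degrees of freedom), with two-sided tests and Benjamini-Hochberg adjustment over all of them, and genes were called at an adjusted p under 0.05. With only 2 libraries a group, an exact permutation test cannot go below p = 0.333. Fold changes on this scale understate low genes. No read counts were used and no counting intervals computed. Deviations of same-numbered libraries correlated at 0.644 (esiFLI1 and esiUSP9X), 0.647 (esiFLI1 and esiGFP) and 0.589 (esiUSP9X and esiGFP) over genes, so replicate numbers were taken as paired, from the data and not the design, and a fit with the replicate block was added (2 and 5.72 degrees of freedom). GC content came from GENCODE v29 and was found for 94.3% of tested genes.

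Members and lists were chosen with earlier results of these data known. The rule named all members, the targets, up to 6 called genes with the smallest adjusted p per list, or the 2 most abundant where none was called, and the 2 nearest profiles of members with a mean of at least 1 FPKM. The fits were tested on simulated data. Alternatives were pseudocounts of 0.1 and 0.5, no filter, a filter of 5 FPKM, quantile and median-ratio scaling, rescaling without MIR6723, fits of 2 groups, no variance trend and each library left out. The GC correction, and 3 further settings of the blocked fit (no filter, 2 groups alone, rescaling), were added after seeing the data.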

Additional observations from a re-analysis of the deposited data

How the results depend on the processing

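Settings are given for the comparisons in the order esiFLI1 against esiGFP, esiUSP9X against esiGFP and esiUSP9X against esiFLI1. The log2 changes of CCK, NPY1R, NPY5R and SCG2 kept their sign in the first and last of these under every setting run. Members called without a block were 3 in the first, and 0 with no filter on low values, 0 with a filter of 5 FPKM (which leaves CCK and VGF untested), 1 with quantile normalization, 1 with median-ratio scaling, 0 with 2 groups alone and 0 with any library left out. In the last they were 2, and 1 with no filter, 1 with the 5 FPKM filter, 4 with the replicate block, 4 with the GC correction, 0 with 2 groups alone and 0 with any library left out. With the block, no filter gave 2 in place of 4 in both, and 2 groups alone gave 7 in the last. The shares of all genes called in these settings are not given here, so the counts say nothing particular to the members. Blocked fits of 2 groups alone, and those with a library left out, have 1 residual degree of freedom. With a library left out, a lone library is also assumed to vary like the other groups. The member counts of these blocked fits are therefore left out.

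Over all tested genes 342, 3 and 375 were called. The replicate block gave 5125, 29 and 4996, no filter gave 8 in the second, and in the first and last the 5 FPKM filter gave 139 and 154, 2 groups alone 56 and 69, and the GC correction 2839 and 2795. Leaving out a library gave 1 to 69, 1 to 4 and 0 to 91. Rescaling without MIR6723 moved the median log2 change of all genes in the first comparison from -0.03 to 0.11. The cause of these shifts was not tested. Some of those fits hold fewer libraries or genes.

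Some changes that were not called changed sign. In esiFLI1 against esiGFP, GAL was -0.025 with quantile normalization in both fits, and with a library left out it ran between -0.78 and 1.05, NPY between -1.0 and 0.66 and VGF between -1.31 and 0.094. With the block those ranges were -0.036 to 0.31 for GAL and -0.59 to 0.24 for NPY. In esiUSP9X against esiGFP the ranges were -0.022 to 0.39 for CCK (-0.0078 to 0.37 with the block), -1.50 to 0.15 for NPY, -0.024 to 0.25 for NPY5R (-0.0036 to 0.23), -0.85 to 0.56 for VGF (-0.66 to 0.37), -0.069 to 0.26 for SCG2 (-0.030 to 0.22) and -1.05 to 0.65 for GAL (-0.45 to 0.056). In esiUSP9X against esiFLI1 GAL ran between -1.25 and 0.58, while NPY and VGF kept their sign. There the blocked change over 13 settings ran between -0.81 and -0.19 for NPY, 0.18 and 0.78 for VGF and -0.59 and -0.080 for GAL. NPY, VGF and GAL were called in some of these settings, among them 2 groups alone, which with the block has 1 residual degree of freedom. The share of all genes called in the same settings is not given here. Read depth is unknown, so what the low values of CCKBR, CHGA and CCK can resolve is unknown too.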

Other observations

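The balance of NPY and its more abundant receptor differed between libraries, and combines levels already given above. The ratio of NPY to NPY1R, in FPKM, was 3.30 and 1.40 in esiFLI1, 0.614 and 0.341 in esiUSP9X and 1.82 and 0.496 in esiGFP. Replicate 1 was above replicate 2 in each group, and the esiUSP9X libraries lay below the same-numbered libraries of both other groups. The transcripts have 57.9% GC for NPY and 38.1% for NPY1R, and the part of the GC trend in this ratio was not tested. NPY1R, by which the ratio is divided, was lower in esiFLI1 than in esiGFP, as given above. The 3 peptide precursors together summed to 129 and 63.0 FPKM in esiFLI1, 85.9 and 51.7 FPKM in esiUSP9X and 183 and 58.0 FPKM in esiGFP, and the 3 granin family members to 23.4 and 31.6 FPKM in esiFLI1, 10.1 and 10.6 FPKM in esiUSP9X and 11.1 and 10.1 FPKM in esiGFP. The granin sum was mostly SCG2 in every library.

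NPY was among several precursors with high levels. Beside it GRP averaged 86.8 FPKM over the 6 libraries, PENK 46.2, CALCB 29.9 and PMCH, the precursor of melanin-concentrating hormone, 19.1. The receptor on which PMCH peptides act, MCHR1, is among the 42 listed receptors that stayed under 1 FPKM in all 6 libraries, as are CCKAR and the galanin receptors GALR1, GALR2 and GALR3.

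The letters TGACGTCA, the cyclic AMP response element, which read the same on both strands, were found in the 250 bases before VGF and before CHGA, in 1 copy each, and in none of the other 7 member promoters searched. They are held by 1.65% of all promoters of that length. VGF and CHGA were the members with the lowest means after CCKBR. No relation between these letters and the levels was tested.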
